A study of Mus musculus with 2 samples.

Results

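Lung pericytes were followed in single-cell RNA sequencing data from the lungs of mice fed a control diet (CD) or high-fat food (HFD). Pericytes were taken as all cells that carried this name in the deposited table of cells, and they numbered 729 of 18397 cells (3.96%). The CD library contributed 347 pericytes of its 8793 cells and the HFD library 382 of 9604. The authors had given the name to 3 of 51 fine clusters, numbered 14, 35 and 41, from cluster averages of marker genes. Values of single genes in each cell were not analysed here, so the name could not be set against Pdgfrb and Cspg4 levels and is used as the authors gave it.

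Both groups were female BALB/c mice without any genetic change that the labels name, and both were 20 weeks old when the lungs were taken. The diets began at 4 weeks of age and lasted 16 weeks. CD drew 13% of its energy from fat, 27% from protein and 60% from carbohydrate, whereas HFD drew 60% from lard fat and 20% from each of the other two. Whole perfused lungs were digested with enzymes, so the pericytes are those that this digestion released. Each diet was represented by 1 library, and how many mice it pooled is not given in the sources used here. All intervals therefore cover counting error only, cells are not replicates, and no test between diets was possible. They are 95% intervals, except that the interval of a ratio of medians joins the outer bounds of both medians and is wider. Diet and the preparation of each library cannot be told apart. The libraries shared 27 cell barcodes, and 6 pericytes carried 1 of these. Without any cell, pericyte or not, that carried a shared barcode, the ratio of pericytes per endothelial cell given later was 1.11 in place of 1.12.

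Pericytes are mural cells that lie within the basement membrane of capillaries and wrap the endothelial tube. Endothelial cells release the growth factor PDGF-B, encoded by Pdgfb, and pericytes are recruited to the vessel through its receptor, encoded by Pdgfrb. In return pericytes supply signals such as angiopoietin 1, encoded by Angpt1, which steadies the endothelium through the receptor Tek. In the lung they line the alveolar capillaries, where they are counted most naturally per endothelial cell.

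The table of genes states for each of 19278 genes whether it was among those that the authors used as highly variable to place and cluster the cells, which held for 5.19% of genes. Pdgfrb and Cspg4, the defining pericyte markers, both carried it. Pdgfrb (ENSMUSG00000024620) occupies bases 61045150 to 61085061 of chromosome 18 in GRCm38, plus strand. Cspg4 (ENSMUSG00000032911), which encodes the NG2 proteoglycan of the pericyte surface, occupies bases 56865033 to 56899870 of chromosome 9, also on the plus strand. Of 16 further pericyte genes, 12 were flagged. Flagged members included Rgs5 (chromosome 1, 169655501 to 169695813), a regulator of G-protein signalling, and Notch3 (chromosome 17, 32120820 to 32166852), the Notch receptor of mural cells. The ATP-sensitive potassium channel of pericytes was split by the flag. Kcnj8, its pore subunit (chromosome 6, 142564837 to 142571614), was flagged, but the gene of its regulatory subunit, Abcc9 (chromosome 6, 142587862 to 142702315), was not. Lamc3, Mcam and Anpep were also without the flag.

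Genes of neighbouring cell types were flagged to different extents. All 8 fibroblast genes (such as Pdgfra and Col1a1) carried the flag, as did 7 of 8 smooth muscle genes (Acta2 and Myh11 among them) and 4 of 6 myofibroblast genes. Of 8 endothelial genes, 2 were flagged (Kdr and Vwf). Of 10 genes for signals between pericytes and endothelium, Angpt1 alone was flagged, and Pdgfb, Jag1, Dll4 and 6 others were not. The flag was set over all cells of both diets, so it holds no level in pericytes and no direction between CD and HFD.

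The share of pericytes among all lung cells was nearly the same on both diets. It was 3.95% (3.55 to 4.37) in CD and 3.98% (3.60 to 4.39) in HFD, an HFD to CD ratio of 1.01 (0.869 to 1.17). Pericytes were the 7th most numerous of the 17 cell types. Their share intervals overlapped, whereas intervals failed to overlap for 29.4% of the cell types. Pericytes contributed 2.96% of all UMIs (unique molecular identifiers, one for each captured transcript) in CD and 2.80% in HFD.

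The question of pericyte coverage calls for the endothelium as the denominator. The CD library held 12.0 pericytes per 100 endothelial cells (10.7 to 13.4), and the HFD library held 13.5 (12.1 to 15). Put the other way, there were 8.33 endothelial cells for each pericyte in CD and 7.43 in HFD. The ratio of HFD to CD was 1.12, and its interval of 0.957 to 1.31 included 1. The endothelial share itself was lower in HFD, at 29.6% compared to 32.9% in CD, with a ratio of 0.900 (0.854 to 0.948). Among cells of at least 3000 UMIs, which left 151 CD and 192 HFD pericytes, the ratio per endothelial cell was 1.37 (1.08 to 1.72) and its interval lay above 1. The interval also lay above 1 without pericyte cluster 35 (1.20, 1.02 to 1.43), without endothelial cluster 1 (1.21, 1.03 to 1.42) and without endothelial cluster 7 (1.19, 1.02 to 1.40). Leaving out any of these clusters raises the ratio by arithmetic. Endothelial clusters 1 (410 cells in CD, 580 in HFD) and 7 (308 and 454) were larger in HFD. Pericyte cluster 35 (64 and 47) was smaller there. Without pericyte cluster 14, which held 75.4% of the pericytes, the direction turned, to 0.768 (0.561 to 1.05). The ratio lay above 1 in 20 of 21 alternatives, so the direction turned only without that cluster. Whether the interval included 1 depended on which cells were counted.

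**Figure D1:**
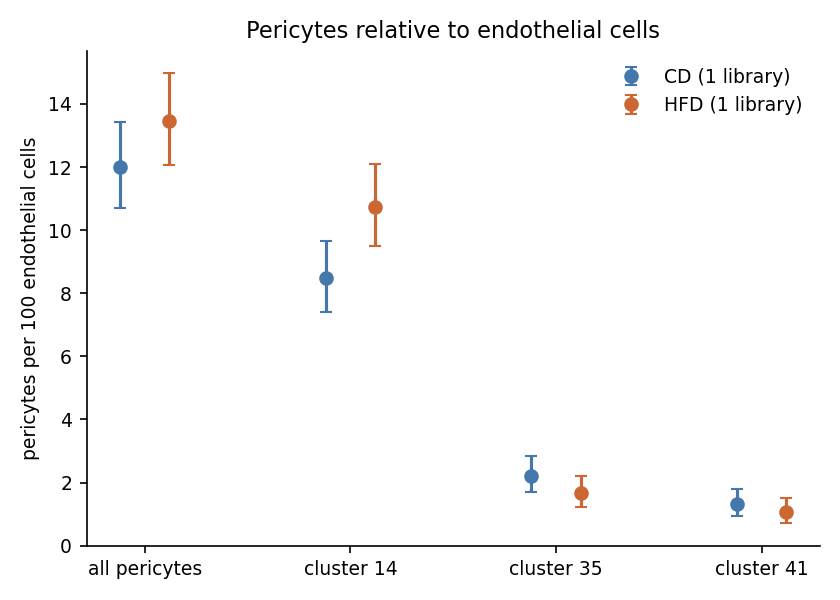
Pericytes per 100 endothelial cells (vertical axis) in CD and HFD, for all pericytes and for each fine cluster. Points are the values of 1 library each and bars are exact 95% intervals of counting error. Cluster 14 is higher in HFD (10.7 against 8.48), while clusters 35 and 41 are lower.

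The ratio lay above 1 for the largest fine cluster and below 1 for the smaller ones, whose intervals included 1. Cells of cluster 14 numbered 8.48 (7.41 to 9.66) per 100 endothelial cells in CD, whereas HFD had 10.7 (9.51 to 12.1), and the ratio of 1.27 (1.06 to 1.52) had an interval above 1. As a share of all lung cells, cluster 14 had a ratio of 1.14 (0.960 to 1.35), an interval that included 1. Cluster 35 went from 2.22 per 100 in CD (1.70 to 2.84) to 1.65 in HFD (1.21 to 2.21), a ratio of 0.747 (0.50 to 1.11). Cluster 41 went from 1.32 per 100 (0.929 to 1.81) to 1.06 (0.711 to 1.51), a ratio of 0.803 (0.479 to 1.34). The endothelial counts cancel when cluster 14 is set against the other pericytes, which leaves the odds ratio described later, 1.65 (1.16 to 2.35). Clusters 35 and 41 were not compared with each other.

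Counted per endothelial cell, 14 of the 16 types other than endothelium had a ratio above 1, and pericytes ranked 10th. For 31.2% of these types the interval of the ratio lay above 1, and pericytes were not among them. Fibroblasts, the collagen-producing cells of the interstitium, had a ratio of 1.38 (1.25 to 1.53). Myofibroblasts, which share contractile genes with mural cells, had a ratio of 1.23 (1.01 to 1.51). All of these ratios share the same endothelial counts and so are not independent of each other.

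**Figure D2:**
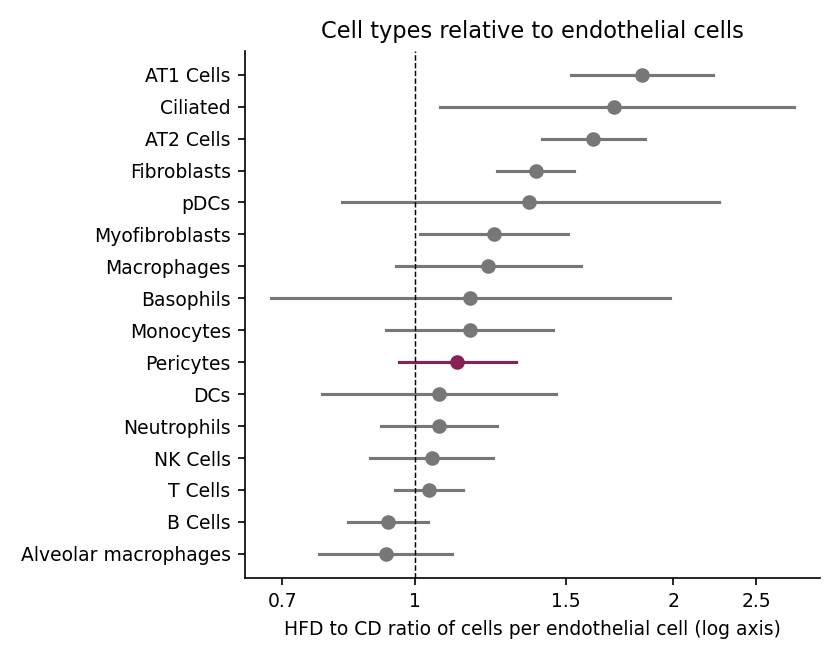
HFD to CD ratio of cells per endothelial cell (horizontal log axis) for 16 cell types. Points are ratios between 1 library per diet, lines are exact 95% intervals, and the dashed line marks a ratio of 1. Pericytes, in purple, stand at 1.12, below fibroblasts (1.38) and myofibroblasts (1.23).

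Within the mesenchyme, pericytes were fewer per fibroblast in HFD, where the fibroblast share of all cells was 12.4% (11.7 to 13.1) compared to 9.97% (9.36 to 10.6) in CD, a ratio of 1.24 (1.14 to 1.36). There were 39.6 (34.8 to 44.9) pericytes per 100 fibroblasts in CD, compared to 32.1 (28.5 to 36.0) in HFD, a ratio of 0.811 (0.682 to 0.964). The ratio was 0.541 (0.359 to 0.809) for cluster 35, 0.581 (0.345 to 0.972) for cluster 41 and 0.917 (0.755 to 1.11) for cluster 14. The ratio for all pericytes depended on depth, since it was 0.893 (0.733 to 1.09) with at least 2000 UMIs per cell and 1.04 (0.813 to 1.33) with at least 3000. Median UMIs of fibroblasts were 4585 in CD and 4313 in HFD, whereas those of pericytes were 2825 and 3011.5. The part that these depths played in the ratio was not tested. Per 100 myofibroblasts there were 173 pericytes in CD and 157 in HFD, and the ratio of 0.907 (0.711 to 1.16) had an interval around 1. With at least 3000 UMIs this ratio was 1.04 (0.763 to 1.43).

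The make-up of the pericyte population by fine cluster was described next. Cluster 14 held 245 of the CD pericytes (70.6%, 65.5 to 75.3) and 305 of the HFD pericytes (79.8%, 75.5 to 83.8). The difference was 9.24 percentage points, with an odds ratio of 1.65 (1.16 to 2.35) and intervals that did not overlap, as held for 27.8% of fine clusters when each was counted within its own cell type, over the types with several clusters. Cluster 35 held 64 CD pericytes (18.4%, 14.5 to 22.9) and 47 HFD pericytes (12.3%, 9.18 to 16.0), an odds ratio of 0.620 (0.403 to 0.952). Cluster 41 held 38 CD pericytes (11.0%, 7.87 to 14.7) and 30 HFD pericytes (7.85%, 5.36 to 11.0), an odds ratio of 0.693 (0.404 to 1.18). The 3 shares sum to the whole, so a higher share of cluster 14 requires a lower share elsewhere.

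The odds ratio of cluster 14 ranged from 1.63 to 1.73 over 7 alternative cell filters, with every interval above 1. The interval of cluster 35 lay below 1 in 4 of the 7. It included 1 with at least 2000 UMIs (0.664, 0.417 to 1.05), with at least 2000 UMIs after HFD UMIs were scaled to the CD depth (0.681, 0.426 to 1.08) and with at least 3000 UMIs (0.919, 0.504 to 1.69). With at least 3000 UMIs cluster 41 had an odds ratio of 0.496 (0.270 to 0.906), the 1 interval of its 7 that lay below 1. Shifts in make-up were also seen in other types. The summed shift, the percent of cells that would have to change cluster to turn the CD make-up into that of HFD, was 9.24 points in pericytes, 10.7 points in fibroblasts, 14.2 points in endothelial cells and 2.29 points in myofibroblasts. In this order the types were cut into 3, 5, 11 and 2 fine clusters, and their cell numbers differed. The shifts carry no interval, and their dependence on these numbers was not tested. As shares of all lung cells, none of the pericyte clusters had intervals that failed to overlap, compared to 25.5% of all fine clusters. The ratio of these shares was 0.672 (0.451 to 0.995) for cluster 35, an interval below 1, whereas it was 1.14 (0.960 to 1.35) for cluster 14 and 0.723 (0.432 to 1.20) for cluster 41.

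Pericytes ranked low among the cell types in UMIs per cell, but cluster 41 held far more than the other pericytes. Cluster 14 ranged from 1006 to 9591 UMIs per cell in CD with a median of 2585 (2399 to 2825), and from 1007 to 11379 in HFD with a median of 2828 (2666 to 3002). Cluster 35 ranged from 1098 to 6535 UMIs in CD with a median of 2824 (2482 to 3151), and from 1314 to 8219 in HFD with a median of 3644 (3102 to 4019). Cluster 41 ranged from 2080 to 24236 UMIs in CD with a median of 10189.5 (7770 to 11546), and from 1507 to 25433 in HFD with a median of 10411.5 (5935 to 14173). In both libraries the median of cluster 41 thus lay far above the others, although the ranges overlapped.

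Over both libraries the median cell of cluster 41 held 3.79 times the UMIs of cluster 14 and 3.48 times those of an endothelial cell. Of the 50 pericytes with at least 8000 UMIs, 44 (88%) belonged to cluster 41, 5 to cluster 14 and 1 to cluster 35. Cluster 41 therefore supplied 9.33% of the pericytes but 26.8% of their UMIs. Its part was 31.2% of pericyte UMIs in CD and 22.9% in HFD. Cells of high UMI count can be pairs of cells captured together. No step against such doublets is stated in the sources used here, and their part in cluster 41 was not tested.

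**Figure D3:**
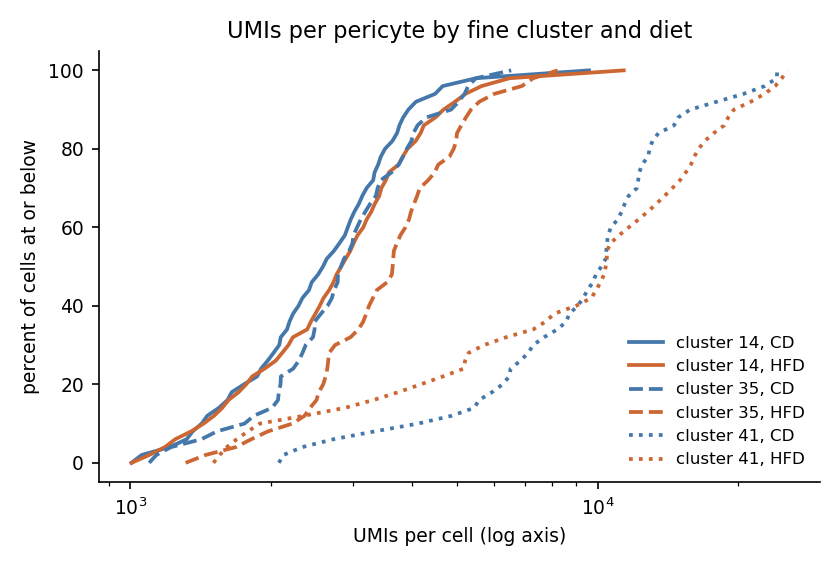
Percent of pericytes (vertical axis) at or below a given number of UMIs per cell (horizontal log axis), by fine cluster (line style) and diet (colour). Cluster 41 lies to the right of the other clusters in CD and, from the median upward, in HFD, with medians of 10189.5 and 10411.5 UMIs. Among the HFD cells of fewest UMIs its line crosses that of cluster 35 (1894.2 against 2225 UMIs at the 10th percentile).

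On the UMAP of the authors, which set cells of similar expression close together, the 3 pericyte clusters formed one neighbourhood. Every one of the 15 nearest cells of each pericyte was another pericyte. This follows partly from the way the clusters were cut from the same map, and 100% of neighbours were of the same type in 16 of the 17 types. Cluster centres of 14 and 35 were 0.0688 apart and those of 14 and 41 were 0.149 apart, on axes that span from 0.220 to 2.04 and from 0 to 2.05. The nearest cluster of another name was cluster 40 of plasmacytoid dendritic cells for both 14 (0.339) and 35 (0.272). For cluster 41 it was the unannotated cluster 45, at 0.260. Myofibroblast cluster 28 lay farther off, at 0.360 from cluster 14, 0.309 from cluster 35 and 0.315 from cluster 41. Distances on a UMAP keep local order only, so those between cluster centres describe the map and measure no similarity.

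CD and HFD pericytes were mixed on this map but not evenly. CD cells made up 47.6% of the pericytes. They supplied 51.8% of the neighbours of CD pericytes and 43.2% of the neighbours of HFD pericytes, a difference of 8.66 points that ranked 4th among the 17 types. The same difference was 8.58 points within cluster 14, 6.58 points within cluster 35 and 0.865 points within cluster 41. Endothelial cells gave 7.16 points, fibroblasts 5.62 and myofibroblasts 2.44. Neighbours share cells and libraries, so these values are a description.

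UMIs and detected genes of pericytes as a whole had overlapping intervals on both diets. The median pericyte held 2825 UMIs (2625 to 2986) in CD, compared to 3011.5 (2828 to 3198) in HFD, a ratio of 1.07 (0.947 to 1.22). Detected genes numbered 1478 (1409 to 1543) in CD and 1575 (1515 to 1628) in HFD, also a ratio of 1.07 (0.982 to 1.16). The intervals overlapped for both measures, whereas HFD lay above CD without overlap in 41.2% of the cell types for UMIs and in 41.2% for genes. For comparison, all cells of the HFD library had 1.07 times the median UMIs of the CD library. Pericytes ranked 14th of 17 types by median UMIs in CD and 12th in HFD.

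Among the clusters, cluster 35 had the highest ratio of medians between diets. It was 1.29 for UMIs (0.984 to 1.62) and 1.16 for genes (0.999 to 1.40), and both intervals reached 1. The ratio for UMIs was 1.09 (0.944 to 1.25) in cluster 14 and 1.02 (0.514 to 1.82) in cluster 41. Pericytes under 2000 UMIs were 22.2% of the CD pericytes (17.9 to 26.9) and 22.5% of the HFD pericytes (18.4 to 27.0). Those with at least 3000 UMIs were 43.5% (38.2 to 48.9) in CD and 50.3% (45.1 to 55.4) in HFD.

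Detected genes were then compared at like numbers of UMIs, because more UMIs reveal more genes. From 2000 to under 3000 UMIs, pericytes had a median of 1361 genes (1325 to 1395) in CD, compared to 1385.5 (1349 to 1430) in HFD. Over the 5 ranges of UMIs the HFD to CD ratio of median genes lay between 0.994 and 1.03. Within ranges of like depth the median gene counts of the diets thus lay within a few percent of each other.

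More genes were detected in pericytes than in fibroblasts in the lower ranges of UMIs. Between 2000 and 3000 UMIs, over both libraries, the median was 1373 genes in pericytes (1346 to 1395), 1324 in endothelial cells (1313 to 1337), 1279 in myofibroblasts (1234 to 1311) and 1213 in fibroblasts (1185 to 1246). The pericyte interval lay above the others in this range. Between 3000 and 4000 UMIs pericytes had 1721 genes (1700 to 1744) and endothelial cells 1685 (1676 to 1701), with intervals that overlapped. From 1000 to 2000 UMIs the order of pericytes (918), endothelial cells (827) and fibroblasts (711) was the same, although pericytes also had the highest median UMIs in that range (1524, compared to 1405 and 1301). Between 4000 and 8000 UMIs the medians were 2217.5 genes in pericytes and 2210 to 2256 in the others, but pericytes had the lowest median UMIs there (4845.5, compared to 5113.5 in endothelial cells, 5719 in fibroblasts and 5777 in myofibroblasts). At 8000 UMIs and more, pericytes had 3975.5 genes (3656 to 4283) at a median of 11462.5 UMIs, and endothelial cells had 3632.5 (3546 to 3731) at 11053 UMIs, with overlapping intervals. Of the 50 pericytes in that range, 44 belonged to cluster 41, so the pericyte value there is largely that of this cluster. Fibroblasts had 3215 genes (3167 to 3258) at 10020.5 UMIs, and myofibroblasts had 3111.5 (3036 to 3284) at 10195.5 UMIs.

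Cluster 41 was also compared with the other pericytes within ranges of UMIs. Between 2000 and 4000 UMIs its 6 cells had a median of 1463 genes (1175 to 1737), compared to 1540 (1506 to 1573) in cluster 14 and 1465 (1385 to 1574) in cluster 35, and the intervals overlapped. Between 4000 and 8000 UMIs its 14 cells had a median of 2582.5 genes (2334 to 3007) at 6032 UMIs, compared to 2191.5 (2108 to 2237) at 4644.5 UMIs in cluster 14 and 2190 (1986 to 2244) at 5003 UMIs in cluster 35. The higher UMIs within this range go along with the higher gene count, and their part was not tested.

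**Figure D4:**
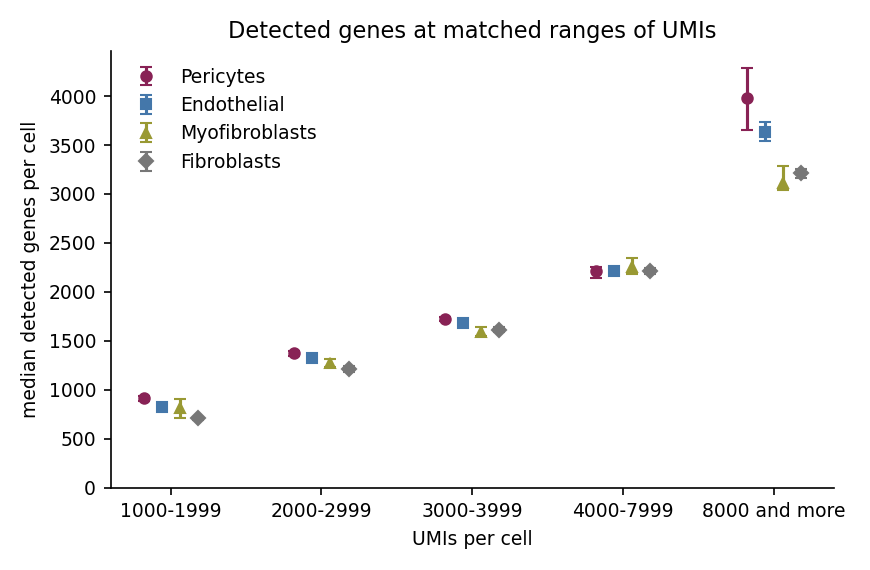
Median detected genes per cell (vertical axis) in 5 ranges of UMIs per cell (horizontal axis) for pericytes and 3 other cell types, both libraries together. Bars are 95% order-statistic intervals. Pericytes have the highest median below 4000 UMIs (1373 genes between 2000 and 3000 UMIs), although their interval meets the endothelial one between 3000 and 4000, and the medians of the types lie between 2210 and 2256 from 4000 to 8000 UMIs.

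The percent of UMIs from mitochondrially encoded genes was higher in HFD pericytes. CD pericytes ranged from 0% to 16.7% with a median of 2.72% (2.58 to 2.90), and HFD pericytes ranged from 0.159% to 19.7% with a median of 3.03% (2.91 to 3.21). Single cells of both diets overlapped over nearly the whole range. The ratio of medians was 1.11 (1.00 to 1.24), and the intervals of the medians did not overlap. Among pericytes of 2000 UMIs or more the ratio was 1.09 (0.977 to 1.20), an interval that included 1. HFD lay above CD without overlap in 29.4% of cell types for this measure, and pericytes ranked 7th of 17 by the ratio, after fibroblasts (1.13) and myofibroblasts (1.14). In level, pericytes were low, ranking 13th in CD and 12th in HFD. Few pericytes passed 10% mitochondrial UMIs, namely 3 CD cells (0.865%, 0.179 to 2.51) and 4 HFD cells (1.05%, 0.286 to 2.66).

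The HFD to CD ratio of the mitochondrial percent was highest among pericytes of few UMIs and close to 1 among those of many. Between 1000 and 2000 UMIs the median was 2.81% in 77 CD pericytes (2.20 to 3.52) and 3.98% in 86 HFD pericytes (3.50 to 5.13), a ratio of 1.42. Between 2000 and 3000 UMIs it was 2.60% (2.43 to 2.76) and 2.98% (2.63 to 3.42), a ratio of 1.15. Between 4000 and 8000 UMIs it was 2.88% (2.40 to 3.37) in CD and 2.80% (2.48 to 3.04) in HFD, a ratio of 0.973. At 8000 UMIs and more, where most cells belonged to cluster 41, it was 3.66% and 3.71%. The intervals of the diets overlapped in every range, and the difference between ranges was not tested.

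**Figure D5:**
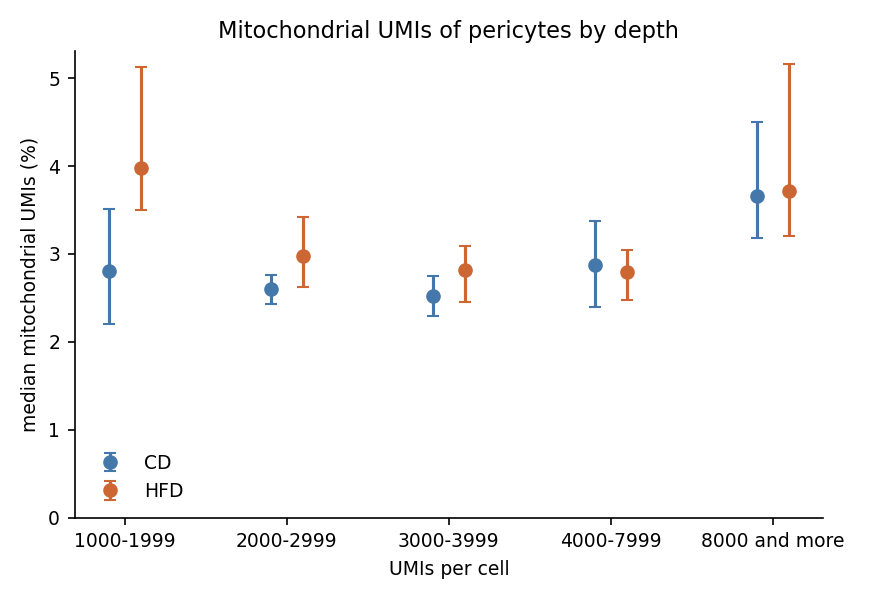
Median percent of mitochondrial UMIs (vertical axis) of CD and HFD pericytes in 5 ranges of UMIs per cell (horizontal axis), with 95% order-statistic intervals. HFD stands highest over CD between 1000 and 2000 UMIs (3.98% against 2.81%), and the medians lie close together from 4000 UMIs upward. The intervals of the diets overlap in every range.

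The same ratio was taken in neighbouring types. Between 1000 and 2000 UMIs the HFD to CD ratio of the median mitochondrial percent was 1.13 in endothelial cells, 1.26 in fibroblasts and 1.14 in myofibroblasts. In this range the intervals of the diets did not overlap in endothelial cells (medians of 4.10% and 4.64%) and fibroblasts (3.90% and 4.93%), whereas they overlapped in pericytes. At 8000 UMIs and more it was 0.999, 1.06 and 0.920. In the ranges between, the pattern varied by type. Myofibroblasts had ratios of 0.964 between 2000 and 3000 UMIs and 0.869 between 3000 and 4000, where pericytes had 1.15 and 1.12. In the same ranges fibroblasts had 1.06 and 1.15, and endothelial cells had 1.12, with intervals of the medians that did not overlap, and 0.958. Between 4000 and 8000 UMIs fibroblasts had a ratio of 1.14, with a median of 2.79% (2.66 to 2.92) for CD and 3.18% (3.04 to 3.31) for HFD that did not overlap, where pericytes had 0.973. By cluster, the ratio in pericytes was 1.14 (1.01 to 1.28) in cluster 14, where the intervals of the medians did not overlap, 1.16 (0.865 to 1.36) in cluster 35 and 1.05 (0.775 to 1.43) in cluster 41. Cluster 41 had the highest mitochondrial percent of the 3 over both libraries, at 3.66% (3.27 to 4.02), compared to 2.81% (2.69 to 3.00) in cluster 14 and 2.64% (2.44 to 2.91) in cluster 35. When all UMIs of the pericytes were pooled, so that RNA-rich cells count for more, mitochondrial genes supplied 3.37% in CD and 3.51% in HFD.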

How the data were processed

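Per the study's methods, reads of both libraries were mapped with Cell Ranger to GRCm38.p6 (mm10), merged in Seurat (4.1.0 in the submitters' processing notes), filtered, placed on a UMAP and clustered together, and fine clusters were named by hand from markers. The labels and the methods name different droplet kits. The deposited table gives UMI and gene counts per cell as the authors counted them, without normalization, the percent of mitochondrial UMIs, and the UMAP coordinates (a score without unit). Its lowest cell held 1000 UMIs, a higher limit than the minimum the methods give, so cells below that were not analysed here. All shares and counts of low-UMI cells refer to the cells in this table.

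Depth was 42470977 UMIs in CD and 50679251 in HFD. Shares were given exact (Clopper-Pearson) 95% intervals, ratios of shares and odds ratios exact conditional ones, and medians order-statistic ones. A ratio of medians took the outer bounds of both. UMI counts of single genes were not used here, so genes per cell were compared within ranges of UMIs instead of after thinning. Barcodes found in both libraries numbered 27. A pericyte carried 6 of them (1 in CD, 5 in HFD), and none was a pericyte in both. Without any cell of a shared barcode the pericyte share had a ratio of 0.997 in place of 1.01.

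Pericytes and all gene lists were chosen with earlier results of these data known. Every cluster with a pericyte was named, and genes were named from the lists with their flags only. Alternatives were other limits on UMIs, genes and mitochondrial percent, other denominators and single clusters. The interval calculations were tested on simulated data. Gene positions came from GENCODE M21. Calculations were run in Python 3.11.15 (scipy 1.17.1, numpy 2.4.6, pandas 2.3.3), and plots were drawn with matplotlib 3.10.9.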

Additional observations from a re-analysis of the deposited data

How the results depend on the processing

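Over all pericyte results, 99 of 107 alternative values stayed within the interval of the value in the report. With at least 3000 UMIs per cell, pericytes per endothelial cell had a ratio of 1.37 and pericytes per fibroblast changed direction to 1.04. Without cluster 14 the ratio per endothelial cell was 0.768 (0.561 to 1.05), and leaving out each of the 11 endothelial clusters gave 1.05 to 1.21. Over 21 alternatives the interval of this ratio lay above 1 in 4, namely with at least 3000 UMIs and without endothelial cluster 1, endothelial cluster 7 or pericyte cluster 35. Among mesenchymal cells only, the pericyte share had a ratio of 0.863 (0.745 to 1.00). Cluster 35 alone gave ratios of 1.29 for UMIs and 1.16 for genes. The mitochondrial ratio was 1.42 between 1000 and 2000 UMIs and 0.973 between 4000 and 8000. The causes were not tested. Leaving out shared barcodes, filters on cluster make-up and means at one cluster make-up (1.09 for UMIs, 1.05 for genes and 1.11 for the mitochondrial percent) were alternatives chosen after seeing the data. No paired analysis was possible because CD and HFD were represented by 1 library each. Cluster 41 held 68 cells in all.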
